A study of Mus musculus with 9 samples.

Results

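The 352 regions described here were accessible sites of mouse brain endothelial cells (ECs) that ranked within a fixed number of strongest peaks in both young WT Cre libraries and beyond it in every old library. They were chosen by the measured rank itself. In each of 9 libraries the 6157 peaks with the highest -log10 p were kept, which is the length of the shortest list, and kept peaks that overlapped by 1 bp or more were joined, which gave 10089 regions. Members had a kept peak in both young WT Cre libraries and in none of the 4 old libraries. They were 352 of the 10089 regions (3.49%) and 352 of the 4433 regions kept in both young WT Cre libraries (7.94%). Their ranks in those 6 libraries are therefore a description and carry no test.

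The assay was Omni-ATAC-seq, which marks open chromatin by the cuts of a transposase, on nuclei of sorted brain ECs. Young WT Cre (n = 2) and old WT Cre (n = 2) mice carried the CDH5 (VE-cadherin) Cre driver with Klf4 intact. Young EC-K4KO (n = 3) and old EC-K4KO (n = 2) mice carried the same driver with floxed Klf4, which tamoxifen removes from ECs throughout the body and not from brain ECs alone. The study states that control and knockout groups received the same tamoxifen treatment. The line is on the C57BL/6J background by the study's methods. The study gives month ranges for its young and old cohorts and induced deletion at a fixed age before either. Old knockout mice had therefore lacked Klf4 for longer than young ones. The labels give age only as young or old, do not say whether animals were pooled, and give young and old libraries different name series, so age and any shared handling of a series cannot be told apart. The study calls the libraries biological replicates, and the labels do not tie them to single animals.

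Accessible regions are stretches of DNA free enough of nucleosomes for proteins to bind, and they include promoters, where transcription starts, and more distant enhancers. In ECs, enhancers and promoters are bound by ETS factors, AP-1 and Krüppel-like factors (KLFs), among others. KLF2 and KLF4 are known for keeping vessels quiescent, and Notch signalling is known for shaping arterial identity.

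The lists held between 6157 and 45026 peaks, 253457 in all, and sequencing depth is unknown because no read counts were used. Young WT Cre lists were the shortest, with 6157 and 9598 peaks, so every peak of young WT Cre 1 was kept and "strong" there means no more than present. Of 25 endothelial marker genes, 7 to 10 had a kept promoter peak in each library. Of the other cell types, none of the 15 pericyte and mural, 15 microglia, 15 astrocyte, 15 oligodendrocyte, 15 neuron or 8 erythroid markers had a kept promoter peak in any library. Below the limit, promoter peaks of other cell types were more frequent in the longer lists. In the 4 old libraries, 0 to 6 pericyte and mural, 2 to 4 astrocyte, 2 to 3 oligodendrocyte, 2 to 4 neuron, 0 to 1 erythroid and 0 microglia genes had one. In young WT Cre the only one was at 1 astrocyte gene in 1 library, and in young EC-K4KO there were 1 to 3 astrocyte, 2 to 3 oligodendrocyte, 1 to 2 neuron, 0 to 1 erythroid and 0 pericyte and microglia genes. The part of such cells in the results was not tested. A promoter peak at Klf4, the deleted gene, was kept in all 9 libraries, at ranks from 911 to 5797. It lies at the gene's start and is no check of the deletion.

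Sequence at the centre of 6 members is shown to give the kinds of DNA the set holds, on the plus strand of GRCm38, with matches to the searched patterns in capitals. The stretch upstream of Kdm6b (chr11:69418336-69418635) belongs to the member with the best mean rank in young WT Cre and holds a CTCF pattern. Those near Id1 (chr2:152726851-152727150), in Rac1 (chr5:143518165-143518464) and in Klf7 (chr1:64088386-64088685) hold AP-1 patterns, and the one near Id1 also an E-box. The one in Dazl (chr17:50292920-50293219) holds a pair of E-boxes and belongs to a GC-rich member that overlaps an annotated transcription start. The one in Rps6kc1 (chr1:190902701-190903000) stood lowest in the old lists and is a tandem repeat.
Kdm6b: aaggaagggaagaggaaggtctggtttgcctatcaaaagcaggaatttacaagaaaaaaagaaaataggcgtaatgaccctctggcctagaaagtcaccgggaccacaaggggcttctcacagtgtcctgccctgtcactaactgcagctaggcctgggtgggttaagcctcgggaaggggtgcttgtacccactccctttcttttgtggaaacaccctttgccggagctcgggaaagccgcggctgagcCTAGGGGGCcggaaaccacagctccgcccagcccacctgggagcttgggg
Id1: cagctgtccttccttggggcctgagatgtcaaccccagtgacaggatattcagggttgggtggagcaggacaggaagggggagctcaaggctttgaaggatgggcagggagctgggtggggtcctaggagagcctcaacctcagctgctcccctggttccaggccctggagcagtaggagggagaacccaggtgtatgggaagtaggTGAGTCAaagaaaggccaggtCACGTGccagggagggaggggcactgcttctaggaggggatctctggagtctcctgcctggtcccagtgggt
Rac1: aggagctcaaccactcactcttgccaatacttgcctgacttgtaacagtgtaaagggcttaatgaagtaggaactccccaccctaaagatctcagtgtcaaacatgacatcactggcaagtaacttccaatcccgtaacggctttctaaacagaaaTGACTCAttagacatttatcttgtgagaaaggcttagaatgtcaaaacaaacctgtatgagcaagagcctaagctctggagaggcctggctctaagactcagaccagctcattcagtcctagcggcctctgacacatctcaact
Klf7: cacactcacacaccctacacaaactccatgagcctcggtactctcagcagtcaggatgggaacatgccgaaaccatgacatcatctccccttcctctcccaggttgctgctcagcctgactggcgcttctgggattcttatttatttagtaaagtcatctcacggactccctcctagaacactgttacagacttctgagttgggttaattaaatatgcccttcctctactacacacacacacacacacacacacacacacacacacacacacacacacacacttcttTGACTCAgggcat
Dazl: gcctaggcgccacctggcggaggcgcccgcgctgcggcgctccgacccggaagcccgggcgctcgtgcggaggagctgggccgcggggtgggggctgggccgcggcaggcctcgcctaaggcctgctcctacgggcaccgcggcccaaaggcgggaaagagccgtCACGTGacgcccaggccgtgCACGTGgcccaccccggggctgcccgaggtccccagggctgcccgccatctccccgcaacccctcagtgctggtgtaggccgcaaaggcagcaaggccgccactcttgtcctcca
Rps6kc1: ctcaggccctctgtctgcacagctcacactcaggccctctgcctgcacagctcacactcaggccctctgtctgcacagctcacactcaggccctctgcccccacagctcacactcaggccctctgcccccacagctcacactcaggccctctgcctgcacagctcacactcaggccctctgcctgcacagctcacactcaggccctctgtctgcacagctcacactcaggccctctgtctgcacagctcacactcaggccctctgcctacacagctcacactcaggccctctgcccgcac
The Rps6kc1 stretch repeats with a period of 28 bp, with the same base at that distance at 95.6% of positions. In the other windows read for named regions, no period of 10 to 60 bp matched at more than 46.6% of positions.

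Members stood in the lower part of the kept peaks in young WT Cre and mostly not far beyond the limit in the old lists. Their median rank was 4280 and 4706 in the young WT Cre libraries, 8832 and 8634 in old WT Cre, and 8975 and 9024 in old EC-K4KO. As a share of the whole list the order ran the other way, the young lists being shorter. The median member stood 69.5% and 49.0% of the way down the young WT Cre lists, 24.4%, 25.1% and 22.6% down the young EC-K4KO lists, and 20.1%, 26.5%, 19.9% and 23.1% down the old lists. Ranks are thus positions among equal numbers of peaks and not positions within a list. Only 12 members had both young WT Cre ranks under 3000, and 194 had at least one over 5000. In the old lists, 350 of 352 had a peak in all 4, 1 had a peak in 3 and 1 in none. The best old rank was under 7000 for 117 members, all old ranks were under 10000 for 148, and 10 members had every old rank over 12314, 2 times the limit. In 94.6% of cases the region had a peak in all 9 whole lists.

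**Figure D1:**
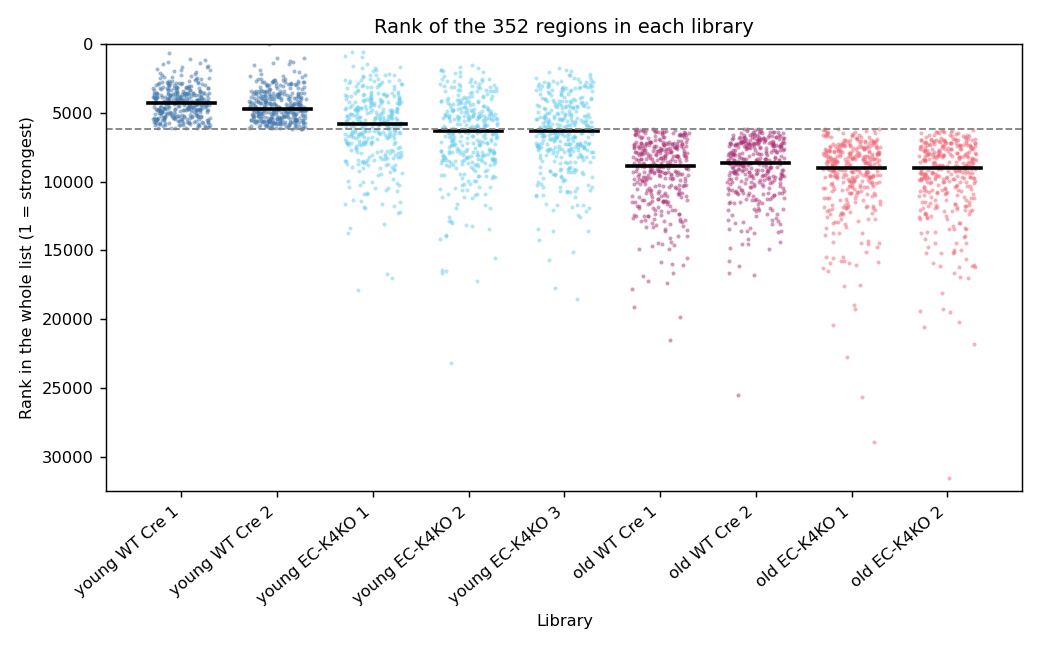
Rank of each member in the whole list of each library (y axis, 1 is strongest), with 1 point per region that has a peak, a black line at the median and a dashed line at the limit of 6157. Medians run from 4280 in young WT Cre 1 to 9024 in old EC-K4KO 2, and the young EC-K4KO medians, 5806, 6352 and 6313, lie close to the limit.

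The deposited values do not show these regions as weaker in old ECs, and members are called lower in rank here for that reason. Fold enrichment is the signal of a peak over the local background of its own library. The median fold of members was 4.11 and 4.46 in young WT Cre, 5.33 and 6.13 in old WT Cre, and 6.88 and 6.80 in old EC-K4KO, so all 4 old libraries were above both young WT Cre ones. In young EC-K4KO it was 3.96, 6.37 and 6.61, a wider spread than between the replicates of any other group. Fold was higher in every old library than in both young WT Cre libraries for 251 members (71.3%) and lower in every old library for 10 (2.84%). The -log10 p was higher in every old library for 347 members (98.6%) and lower in every old one for 0. It was also higher in every old library for all 3512 regions kept in both young WT Cre and all 4 old libraries (100%). This share is therefore not particular to members.

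Members differed from other regions in how far apart the young WT Cre and old values lay. The 3512 regions kept in both young WT Cre and all 4 old libraries serve as the comparison. Their median fold was 5.46 and 5.82 in young WT Cre, 9.06 and 9.52 in old WT Cre, and 10.6 and 10.3 in old EC-K4KO. Fold was higher in every old library for 3274 of them (93.2%), against 71.3% of members. The median -log10 p of members was 5.57 and 6.27 in young WT Cre and 23.8, 18.8, 37.7 and 31.5 in the old libraries. That of the 3512 regions was 9.14 and 10.3 in young WT Cre and 82.3, 56.4, 122 and 98.1 in the old libraries. Since rank chose both sets, this comparison describes the choice and is not a test of it.

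Members' peaks were also wider in the old lists, and the value that ranks a peak is an average over its width. Median width was 334.5 and 429.5 bp in young WT Cre, 645.0, 726.5 and 791.0 bp in young EC-K4KO, 857.0 and 863.0 bp in old WT Cre, and 910.0 and 899.5 bp in old EC-K4KO. For the 3512 comparison regions it was 388.0 and 453.0 bp in young WT Cre and between 670.0 and 720.0 bp in the old libraries. The peak was wider in every old library than in both young WT Cre ones for 331 members (94.0%) and for 3191 comparison regions (90.9%). Ranked by -log10 p times width, 188 regions met the rule, and 94 of the 352 members (26.7%) were among them. Ranked by fold alone, 819 regions met it, with 251 members (71.3%) among them, so the membership depends on the value that ranks a peak.

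**Figure D2:**
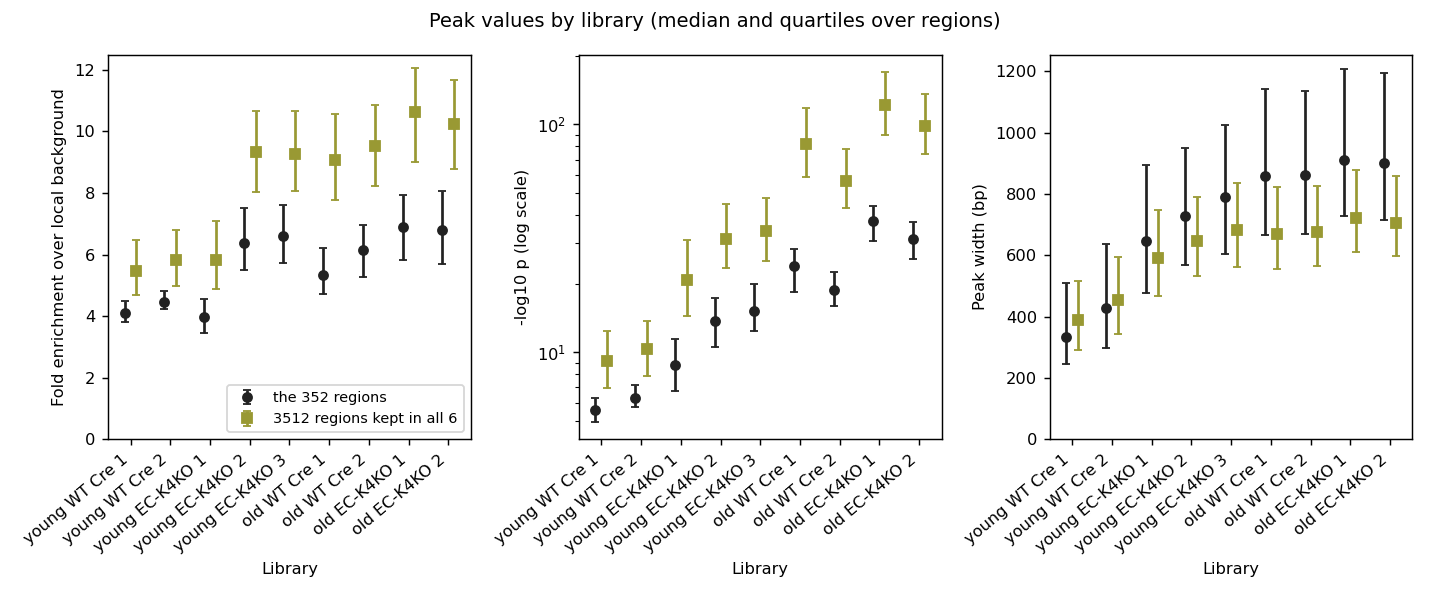
Fold enrichment, -log10 p (log axis) and peak width in bp for the 352 members (circles) and the 3512 regions kept in both young WT Cre and all 4 old libraries (squares), with the median and quartiles over regions for each library. Both sets stand higher in fold and -log10 p in the old libraries than in young WT Cre, the comparison regions by more, while the members' peaks are the wider ones there, at 857.0 to 910.0 bp.

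The young EC-K4KO libraries took no part in the choice beyond the merging of peaks. They kept 187 (53.1%), 161 (45.7%) and 166 (47.2%) of the 352 members, a mean of 48.7% ± 3.92 (SD, n = 3). The SD leaves out how the share depends on the choice. Chosen without young WT Cre 1, 993 regions met the rule and 30.01% were kept, and chosen without young WT Cre 2, 1525 met it and 17.5% were kept. Over all 4433 regions kept in both young WT Cre libraries the same libraries kept 91.1%, 90.4% and 90.7%. Members were kept by all 3 young EC-K4KO libraries in 103 cases, by 2 in 63, by 1 in 79 and by none in 107. Among the 333 members with a peak in all 9 lists, the mean rank in young EC-K4KO lay between the means of young WT Cre and old for 248. It was better than in young WT Cre for 56 and worse than in the old libraries for 29. No test was run, since every contrast of these libraries would use libraries that chose the regions.

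The share kept in young EC-K4KO was lowest for members and highest for regions kept in all 4 old libraries, with no difference beyond the spread between those kept in 1 and in 2. It was 71.0% ± 5.64 for the 145 regions kept in 1 old library, 71.6% ± 0.352 for 163 kept in 2, 85.1% ± 1.53 for 261 kept in 3 and 97.1% ± 0.202 for the 3512 kept in all 4 (SD, n = 3 libraries). In young EC-K4KO 1 alone it was 77.2% for regions kept in 1 old library and 71.2% for those kept in 2. The median of the mean young WT Cre rank moved with it, from 4458 for members to 4145, 3890, 3645 and 1980, and its part was not tested beyond the values in the next sentences. At a mean young WT Cre rank of 2000 to 3000, young EC-K4KO kept 84.1% ± 9.91 of 21 members and 98.3% ± 0.193 of 791 comparison regions, and at 3000 to 4000 it kept 56.8% of 74 members, the same number in each library, and 94.1% ± 0.774 of 592. Among regions with a mean young WT Cre rank of 4000 to 5000, young EC-K4KO kept 48.0% ± 6.04 of 173 members and 87.8% ± 2.16 of 304 comparison regions. At 5000 to 6157 it kept 31.2% ± 4.07 of 79 members and 69.2% ± 12.6 of 52 comparison regions. The opposite set, the 544 regions kept in all 4 old and in no young WT Cre library (5.39% of all merged regions), was kept by young EC-K4KO at 54.9% ± 6.27. The ranges over the 3 libraries overlapped, at 45.7% to 53.1% for members and 48.4% to 60.9% for the opposite set.

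**Figure D3:**
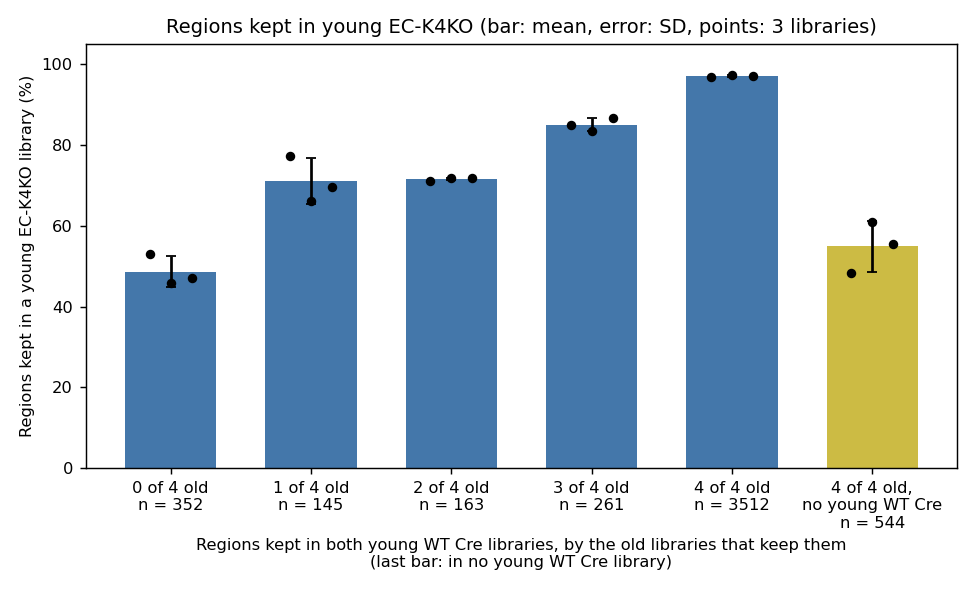
Share of regions (y axis, percent) kept in young EC-K4KO libraries, with bars for the mean, error bars for the SD and points for the 3 libraries. The first 5 bars split the 4433 regions kept in both young WT Cre libraries by how many old libraries kept them, from 48.7% for members to 97.1%, and the last bar is the 544 regions kept in all old and no young WT Cre libraries.

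Members lay at promoters less often than the comparison regions. By the authors' class of the peak centre, 151 members (42.9%) were promoter-TSS, 86 (24.4%) intron, 72 (20.5%) intergenic, 41 (11.6%) exon and 2 TTS, the end of a gene. Promoter-TSS made up 65.4% of the 4433 regions kept in both young WT Cre, 70.4% of the 3512 comparison regions and 52.5% of all 10089. Among the 948 comparison regions with a mean young WT Cre rank over 3000 it was 62.7%. At a mean young WT Cre rank of 4000 to 5000 it was 44.5% for members and 58.6% for comparison regions. A total of 118 members (33.5%) lay over 5000 bp from the nearest TSS, against 18.2% of the comparison regions and 33.2% of all regions. Counted by overlap of the whole region with an annotated TSS, 216 members (61.4%) touched one, as did 81.3% of the comparison regions.

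Members kept in young EC-K4KO and members not kept there differed in base composition. The 103 kept in all 3 young EC-K4KO libraries had a median GC content of 73.0% in their central 300 bp, and 85 (82.5%) overlapped a TSS. The 107 kept in none had a median GC content of 58.3%, and 45 (42.1%) overlapped a TSS. Their median distance to the nearest TSS was 197 bp and 4392 bp. Split by GC alone, young EC-K4KO kept 68.2% of the 128 members at 70% GC or more, 37.9% of 138 between 55% and 70%, and 36.8% of 86 below 55%. The comparison regions gave 98.8%, 98.0% and 91.4% in the same bins. The GC-rich members ranked worse in old WT Cre 1 than in the other old libraries, with medians of 9720 there and 8455, 8339 and 8600.5 in old WT Cre 2 and old EC-K4KO 1 and 2. The part of base composition in these ranks was not tested.

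Short sequence patterns were counted on both strands of the central 300 bp. Outside promoters, the AP-1 pattern TGANTCA was found in 35 of 201 members (17.4%), 12.4% of 1040 comparison regions and 13.9% of all 4788 regions there. At promoters it was found in 8 of 151 members (5.30%), 3.60% of 2472 comparison regions and 3.49% of all 5301. The NFY pattern CCAATNA was found in 9 of 151 promoter members (5.96%), against 24.3% of promoter comparison regions and 19.1% of all promoter regions. Outside promoters it was in 6.47% of members and 12.5% of comparison regions. The ETS pattern CCGGAAGT was in 10 of 352 members (2.84%), 6.72% of comparison regions and 5.86% of all regions.

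The CRE pattern TGACGTCA was in 1.42% of members and 3.73% of comparison regions, and the YY1 pattern AAGATGGCG in 1.14% and 3.56%. The KLF pattern CCACACCC was in 13 members (3.69%), 4.24% of comparison regions and 3.99% of all regions. It was in 0 of the 103 members kept in all 3 young EC-K4KO libraries and in 9 of the 107 kept in none. The GC box CCCCGCCC was in 23.9% of members, the NRF1 pattern GCGCANGCG in 9.09%, the CTCF pattern GCCCCCTNG in 4.26% and the E-box CACGTG in 7.67%. In the comparison regions these shares were 33.2%, 14.5%, 4.61% and 9.08%. KLF was not the only pattern to differ between members kept in all 3 young EC-K4KO libraries and those kept in none. NRF1 was in 18 of 103 and 5 of 107, the GC box in 28.2% and 20.6%, and AP-1 in 8.74% and 10.3%. Those sets also differ in GC content and TSS overlap, and no pattern was tested. Among 32851 RefSeq promoters of 300 bp in GRCm38, AP-1 was in 7.81%, NFY in 15.6%, ETS in 3.89%, KLF in 3.56%, GC box in 17.6%, NRF1 in 6.25%, CTCF in 2.75%, E-box in 7.15%, CRE in 1.79% and YY1 in 1.40%. No pattern contains another, although matches can overlap in part, and a match of letters is no evidence of binding.

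**Figure D4:**
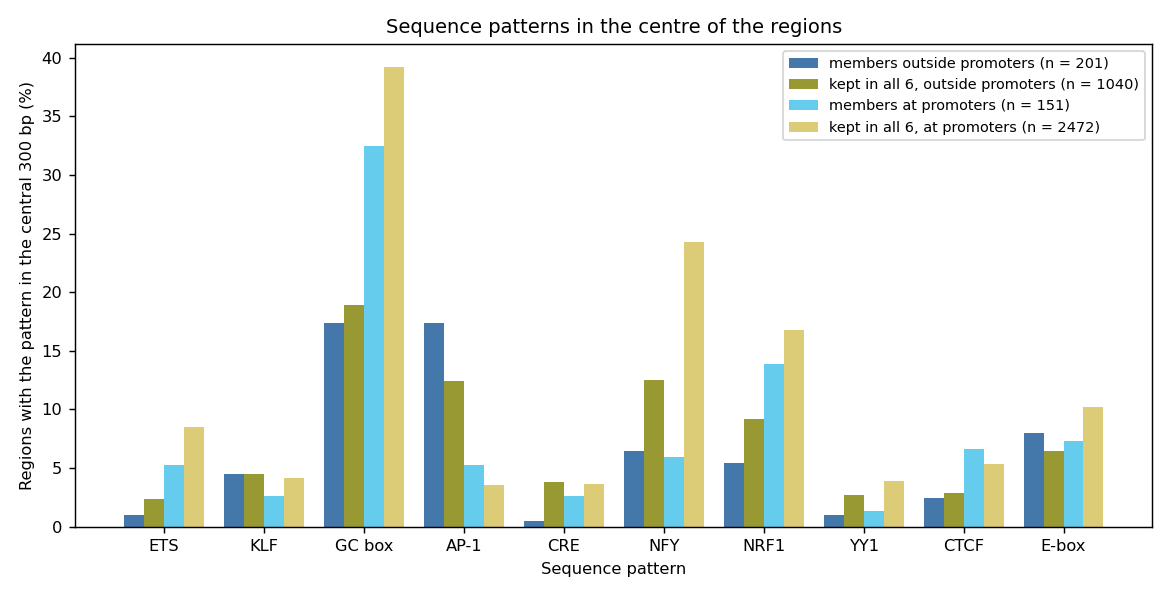
Share of regions (y axis, percent) whose central 300 bp holds each of 10 sequence patterns, for members and for regions kept in both young WT Cre and all 4 old libraries, each outside and at promoters. AP-1 stands at 17.4% against 12.4% outside promoters, and NFY at 5.96% against 24.3% at promoters.

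The 12 members with the best mean ranks in young WT Cre lay near genes of varied function. The region 5318 bp upstream of Kdm6b (chr11:69417601-69419371), a gene for a histone H3K27 demethylase, ranked 1362 and 994 in young WT Cre and 2731, 5530 and 4612 in young EC-K4KO. It ranked 6346 and 6388 in old WT Cre and 7289 and 7413 in old EC-K4KO. Its fold was 4.95 and 5.68 in young WT Cre and 4.42 to 4.79 in the old libraries, so here the old folds were below both young WT Cre folds. A second member lay in intron 1 of Kdm6b (chr11:69408682-69411899), with young WT Cre ranks of 5247 and 5971 and old ranks of 10913 to 13047.

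The region 5716 bp upstream of Klf9 (chr19:23134568-23136185), a KLF gene that responds to glucocorticoids, ranked 1873 and 2011 in young WT Cre. This region itself overlaps an annotated TSS. It ranked 3059, 2950 and 2822 in young EC-K4KO, 6661 and 7675 in old WT Cre, and 8381 and 8098 in old EC-K4KO. The young EC-K4KO ranks, which the choice did not use, were within the limit in all 3 libraries. Its -log10 p was 9.06 and 9.96 in young WT Cre and 21.4 to 40.8 in the old libraries, higher in all 4. Its fold was 4.62 and 4.55 in young WT Cre and 4.19 to 4.55 in the old libraries. An intron 1 region of Phldb1 (chr9:44733761-44735359) ranked 1126 and 1396 in young WT Cre and 6492 to 9488 in the old libraries. The first exon of Msl3 (chrX:168672627-168674353), a subunit of a histone acetyltransferase complex, ranked 1167 and 3205 in young WT Cre and 6455 to 8852 in the old libraries. The start of Rbm3os, an antisense gene at the cold-inducible Rbm3 (chrX:8145228-8145905), ranked 1463 and 1441 in young WT Cre and 6967 to 7862 in the old libraries, although its fold was higher in all old libraries (8.29 to 10.8) than in young WT Cre (6.64 and 7.31).

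Others in the best 12 were less even between replicates. A region classed as a promoter of Schip1 (chr3:68493153-68494354) ranked 676 in young WT Cre 1 and 3619 in young WT Cre 2, and promoter B330016D10Rik (chr4:141545105-141547161) ranked 3175 and 997. A 241 bp region nearest to Pisd (chr5:32733984-32734224) ranked 563 in young EC-K4KO 1 but 9518 and 11909 in the other young EC-K4KO libraries. The promoter of Zfp592, intron 1 of Abl2, a tyrosine kinase gene, and exon 1 of Lactb ranked between 1231 and 3659 in young WT Cre and between 6613 and 10835 in the old libraries. Chromosome X held 12 members of 94 regions kept in both young WT Cre (12.8%), the highest share of any chromosome, with 5.29% on chromosome 14 the lowest. The study used males and females and the sample titles give no sex, so the part of sex in this share was not tested.

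Members ranking best in young EC-K4KO were mostly GC-rich gene starts, with 73.3% to 82.3% GC. The promoter of Skil (chr3:31093777-31095836), whose product SnoN represses SMAD signalling, ranked 573, 2559 and 3048 in young EC-K4KO and 4300 and 3439 in young WT Cre. It ranked 9474, 10309, 9606 and 9837 in the old libraries. Fold at Skil was 5.17 to 5.91 in young EC-K4KO, 3.68 and 4.13 in young WT Cre and 3.77 to 4.29 in the old libraries. The promoter of Tacc1 (chr8:25201165-25201960) ranked 907, 1534 and 3847 in young EC-K4KO and 17783 in old WT Cre 1, with 10729 to 11103 in the other old libraries. Twf2, which encodes an actin-binding protein, Fbxo4 and Lactb were also in this set, with young EC-K4KO ranks of 1469 to 3128. All 5 were among the 103 members kept in all 3 young EC-K4KO libraries. By the rule, any such member ranks better there than in every old library. No member lacked a peak in all young EC-K4KO lists.

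The members lowest in the old lists lay in introns of Rps6kc1, Rac1, Trpv4 and Pisd, exon 1 of Acbd6 and a promoter of Plec. Among all 352 members, 201 were outside the promoter-TSS class, and these few regions cannot show whether the lowest members differ. The Rps6kc1 repeat (chr1:190902729-190902972) ranked 1915 and 3418 in young WT Cre, 2833 in young EC-K4KO 1 and 13199 to 31515 in the old libraries, with no peak in young EC-K4KO 2 and 3. An intron region of Rac1 (chr5:143518212-143518418), a small GTPase gene of cytoskeletal and junction control, ranked 3573 and 4401 in young WT Cre, 7345, 8419 and 7527 in young EC-K4KO, and 15747 to 17491 in the old libraries. An intron region of Trpv4, a calcium channel gene, ranked 9512 and 9690 in old WT Cre and 25652 and 21807 in old EC-K4KO. How many members separate the old genotypes in this way was not counted, and no difference between them was tested. The Trpv4 region ranked 4293 and 5329 in young WT Cre and 17216 and 7419 in young EC-K4KO 2 and 3. In young EC-K4KO 1 it had no peak. Intron 7 of Pisd, exon 1 of Acbd6 and a promoter of Plec, a cytolinker gene, ranked between 2845 and 5608 in young WT Cre and between 11464 and 22720 in the old lists that held them.

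Genes from 15 lists were then read, and 18 had a member. Genes are named by the nearest TSS, which need not be the gene a region acts on. Over all gene names, 342 of 4050 with a region kept in both young WT Cre had a member (8.44%). Of the Notch, Wnt and TGF-beta signalling list, 5 of 18 such genes had one (27.8%), and of the KLF family 4 of 10. Both counts rest on few genes and were not tested. A gene with more regions has more chances of a member, and the number of regions per gene was not taken into account. In the KLF family, 1 of the 4 is counted through a region 581456 bp from Klf4. The promoter of the receptor gene Notch1 ranked 4173 and 4586 in young WT Cre, 7415, 5378 and 3903 in young EC-K4KO, and 8354 to 9114 in the old libraries. Intron 1 of Notch4, a receptor gene mostly used by ECs, ranked 4599 and 4556 in young WT Cre, 8203 to 8785 in young EC-K4KO, and 6787 to 7753 in the old libraries, so young EC-K4KO stood below all old libraries. Intron 2 of the ligand gene Jag1 ranked 5390 and 4113 in young WT Cre, 9080 to 12260 in young EC-K4KO and 9235 to 12601 in the old libraries.

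The promoter of the Notch target Hey1 went the other way in young EC-K4KO. It ranked 4783 and 6155 in young WT Cre, 1868, 2908 and 3171 in young EC-K4KO, and 8509 to 9573 in the old libraries. The region 9231 bp upstream of Id1, a BMP target, ranked 2035 and 3915 in young WT Cre, 8192 and 7227 in old WT Cre and 18992 and 20544 in old EC-K4KO. Its fold was 4.75 and 4.25 in young WT Cre, 4.08 and 4.80 in old WT Cre and 3.30 and 3.16 in old EC-K4KO. Both old EC-K4KO folds were thus below all other libraries at Id1. In young EC-K4KO the Id1 region ranked 4072, 8928 and 6619. A member in an intron of Ipo9 went the other way, with ranks of 12813 and 14407 in old WT Cre and 7655 and 9034 in old EC-K4KO. Over all members the median ranks were 8832 and 8634 in old WT Cre and 8975 and 9024 in old EC-K4KO. Single regions thus do not describe the set, and no difference between the old genotypes was tested.

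In the KLF family, all 10 of these genes also had a region kept in all 6 libraries. Beside Klf9, a region 5624 bp from Klf2 ranked 2732 and 5118 in young WT Cre, 3142, 6071 and 7612 in young EC-K4KO and 9712 to 12882 in the old libraries. An intron region of Klf7 ranked 5664 and 3425 in young WT Cre, 6310 to 6819 in young EC-K4KO and 8738 to 12297 in the old libraries. The region named for Klf4 lies 581456 bp from its TSS. Its old ranks of 6158 to 7086 were just past the limit.

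Of the 18 endothelial markers with a region kept in both young WT Cre, 2 had a member. Exon 1 of Tjp1 (chr7:65370834-65371507), which encodes the tight junction protein ZO-1, ranked 4101 and 1514 in young WT Cre and 2555, 1759 and 3404 in young EC-K4KO. In the old libraries it ranked 16073 in old WT Cre 1 but 6386, 7832 and 6593 in the other 3, so that library set much of the gap. A region 25864 bp from Sox17, an arterial transcription factor gene, ranked 1654 and 4770 in young WT Cre and 6396 to 9545 in the old libraries. Among 11 transport genes, Slc3a2, part of an amino acid transporter, had one, with ranks of 4123 and 5107 in young WT Cre, 8556 to 11825 in young EC-K4KO and 10217 to 12357 in the old libraries.

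Activation genes gave 2 of 6, Rela, an NF-kappa-B subunit, and Nfkbia, its inhibitor. Exon 1 of Rela ranked 4965 and 4926 in young WT Cre, 4313, 5092 and 5049 in young EC-K4KO and 8202 to 10668 in the old libraries. A region 6365 bp upstream of Nfkbia ranked 4619 and 5014, then 6129 to 10597 in young EC-K4KO and 8405 to 10842 in the old libraries. AP-1 and immediate early genes gave 2 of 18, a region 41327 bp from Atf3 and the promoter of Maff, both kept in all 3 young EC-K4KO libraries. The region named for Atf3 overlaps an annotated TSS that far from the Atf3 one, so it need not belong to Atf3. Mdm2, the ubiquitin ligase of p53, was 1 of 8 stress genes and ranked 4007 and 3414 in young WT Cre, 2534 to 3838 in young EC-K4KO and 6803 to 9295 in the old libraries. A region 31736 bp from Fgfr3 was 1 of 2 astrocyte list genes. It ranked 3946 and 5561 in young WT Cre and 16995, 13889 and 10371 in young EC-K4KO. In the old libraries it ranked 9437 and 9224 in WT Cre and 15739 and 19420 in EC-K4KO, a difference that was not tested. Vasomotor and coagulation genes gave 0 of 5 and housekeeping genes 0 of 9. The pericyte, microglia, oligodendrocyte, neuron and erythroid lists had no gene with a region kept in both young WT Cre and so could give none.

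**Figure D5:**
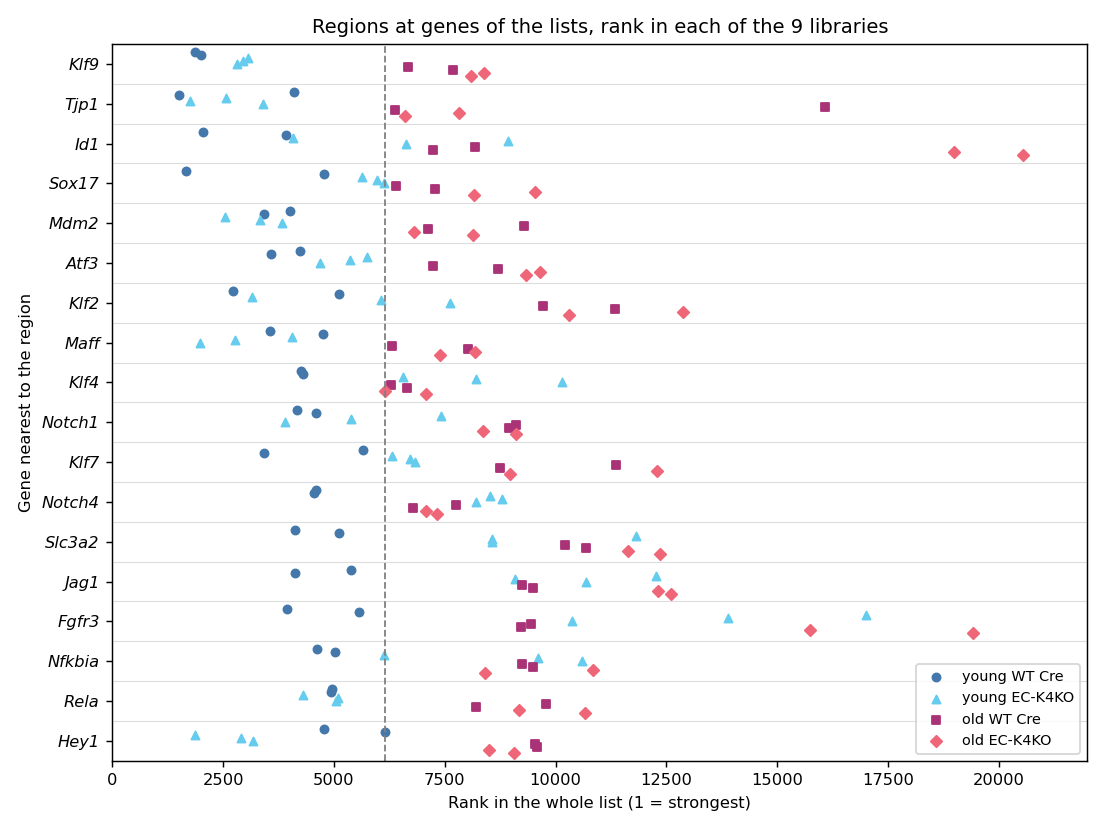
Rank in the whole list of each of the 9 libraries (x axis, 1 is strongest) for the 18 members nearest to a gene of the lists (y axis), with the dashed line at 6157. Young WT Cre (circles) lies left of the line and old libraries (squares and diamonds) right of it by the choice of members, while all 3 young EC-K4KO libraries (triangles) lie left for 8 regions, Klf9, Tjp1, Sox17, Mdm2, Atf3, Maff, Rela and Hey1, and right for 6, Klf4, Klf7, Notch4, Slc3a2, Jag1 and Fgfr3.

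A single member had no peak in any old list. It covers exons 3 and 4 of 12 of Ctcf, the gene of the insulator protein CTCF (chr8:105663787-105665018), although the files name Rltpr as the gene with the nearest TSS. It was the strongest peak of young WT Cre 2, with a -log10 p of 349.9 and a width of 1232 bp, but ranked 3132 in young WT Cre 1 and 8126, 9578 and 13557 in young EC-K4KO. Its fold was modest everywhere, from 3.45 to 5.66. Exon 3 carried a peak in all 5 young libraries and in no old one, and exon 4 in 4 young libraries. Exons 2 and 5 to 12 carried none in any library, whereas exon 1, at the promoter, had a peak in 8. Members just inside the limit were Dazl, Hey1 and Pim3, with a worst young WT Cre rank of 6156, 6155 and 6154. Regions just outside it lay in introns of Phldb2 and Bcr and near Sox7, kept through one old library at rank 6146, 6142 and 6141.

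The choice was repeated on 1 library of each group and read in the library left out. Chosen on replicate 1 of young WT Cre, old WT Cre and old EC-K4KO, 1664 of 6150 regions met the rule. The left-out young WT Cre library kept 26.1% of them, and the left-out old WT Cre and old EC-K4KO libraries kept 5.89% and 4.15%. Over all 6150 regions these libraries kept 72.1%, 69.6% and 68.3%. Chosen on replicate 2, 1157 of 6147 regions met the rule, and the left-out libraries kept 38.0%, 10.5% and 6.22% of them, against 72.1%, 76.1% and 76.2% of all. Both choices contain the 352 members, and the left-out libraries also took part in choosing those. By the rule, the left-out young WT Cre library keeps every member and the left-out old libraries keep none. The left-out young WT Cre library kept more of the chosen regions in both numberings, but the members alone give such a gap. It therefore restates the choice and is no repeat of it in other libraries. The young EC-K4KO libraries kept 22.6%, 19.2% and 20.7% of the regions chosen on replicate 1. Of those chosen on replicate 2 they kept 38.5%, 31.6% and 32.2%. The 3 left-out libraries are too few for a test.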

How the data were processed

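Each of the 9 libraries has its own deposited peak list. By the study's methods and the submitters' processing notes, reads were trimmed (TrimGalore), mapped to mm10, which is GRCm38 (Bowtie2), cleared of duplicates and used to call broad peaks for each library alone (MACS2). Peaks were called on whole paired fragments and not on shifted transposase cut sites. No control library is named. The score column, as deposited, holds the -log10 q on a scale 10 times larger. The deposited fold is a ratio of peak signal to the library's own local background, and fold, -log10 p and -log10 q were averaged over the broad peak by the authors' caller. The deposited annotation, made with HOMER, gives a class by the peak centre, the nearest gene and the distance to its TSS in bp. Its gene table version is not given in the sources used here. No read counts were used, so depth is unknown, no interval can be given and the differential test of the authors was not rerun.

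Peaks were ranked by -log10 p, ties by fold, and the 6157 strongest per library kept and merged. A region's value in a library is that of its best-ranked overlapping peak. Central 300 bp windows were read from GRCm38 for GC content and patterns, all regions lying within its chromosome ends, and TSS overlap used GENCODE M21. The code of the rule was run on simulated peaks with strong and weak values set far apart. This checks the code and says nothing about regions near the limit. No significance test was made, and shares are given with the SD between libraries or beside the same share over other regions. The regions, the gene lists and the patterns were chosen with earlier results of these data known. Named regions are the 12 best in young WT Cre, those without an old peak, the 6 best in young EC-K4KO, the 6 lowest in the old lists, those at genes of the 15 lists, and 3 on either side of the limit. One named region is not reported here. Regions in Kdm6b intron 1 and the young WT Cre rank bins, GC bins and rank by fold times width were added after values were seen. Alternatives were list length, ranking value, overlap, merging, a q limit, chromosomes and leaving out libraries. Python 3.11.15, numpy 2.4.6, pandas 2.3.3 and matplotlib 3.10.9 were used.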

Additional observations from a re-analysis of the deposited data

How the results depend on the processing

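The number and the identity of the regions depended on the ranking value and the list length. The count of 352 was 299 with the 5000 strongest peaks, but only 157 of the 352 members (44.6%) were among them. It was 212 with the 3000 strongest peaks (12 of the 352 members among them), 87 with the 1000 strongest (0), 819 when ranked by fold (251), 188 when ranked by -log10 p times width (94) and 228 with a q under 0.01 (228). Leaving out 1 library gave 351 to 1525 regions, with 993 without young WT Cre 1 and 1525 without young WT Cre 2. Ranked by fold times width, chosen after seeing the data, it was 385 with 61 members among them.

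The mean share kept in young EC-K4KO, 48.7%, was 53.6% with the 5000 strongest peaks, 52.8% with 3000, 55.8% by fold, 44.0% by -log10 p times width, 40.4% by fold times width and 54.5% with a q under 0.01, and 17.5% to 51.3% without 1 library. It was 30.01% without young WT Cre 1 and 17.5% without young WT Cre 2. The share with any old peak, 99.6%, was 99.5% with the 5000 strongest peaks, 100% with 3000 and with 1000, 99.1% by -log10 p times width and 99.4% with a q under 0.01, and 62.9% to 99.7% without 1 library, the lowest without young WT Cre 2. The promoter share, 42.9%, was 60.9% with the 3000 strongest peaks, 74.7% with 1000, 52.0% by fold, 33.5% by -log10 p times width and 61.4% by any overlap with a TSS, and 22.9% to 44.3% without 1 library. The ratio of median widths, old over young WT Cre, was 2.31, and 1.98 with 3000 peaks, 1.58 with 1000, 1.84 by -log10 p times width and 1.67 by fold times width, and 2.26 to 2.91 without 1 library. The gap between left-out young WT Cre and old libraries was 21.1 percentage points chosen on replicate 1 and 29.6 on replicate 2. Both gaps include the 352 members, which the left-out libraries helped to choose, so they describe the choice.

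Requiring a larger shared part of peak and region cannot change membership, since kept peaks lie inside their merged region. A version on peaks of young WT Cre 1, added after seeing the data, found 332. No paired analysis was possible because no result comes from a test. The causes of these differences were not tested, and unknown depth limits every comparison between lists.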
